A study of Arabidopsis thaliana with 12 samples.

Results

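The chloroplast genome transcripts of Arabidopsis embryos were taken as every row of the deposited expression table whose gene ID starts with ATCG, which gave 133 of 33602 rows. RNA was measured in torpedo-stage embryos from 4 crosses, with 3 biological replicates per group and 12 libraries in all. In each cross a diploid wt Col-0 plant was the mother. The group 2x wt had diploid Col-0 pollen donors and 2x nrpd1 had diploid donors mutant in NRPD1, which the labels call pol4 and which encodes the largest subunit of RNA polymerase IV. The group 3x wt had tetraploid Col-0 donors and 3x nrpd1 had tetraploid nrpd1 donors. Diploid embryos were dissected 6 days after pollination (DAP) and triploid embryos at 8 DAP, so ploidy and embryo age cannot be told apart. For 3x nrpd1 these are the ages of the labels and methods, and another passage of the study gives the age of the diploid embryos, so the age of this group is uncertain. The nrpd1 mutation came from the pollen parent alone, and each sample pooled the embryos of many seeds. The libraries were made from RNA selected for its poly(A) tail.

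The chloroplast genome is a small circular DNA left from a photosynthetic bacterium. It encodes core subunits of the photosystems, the cytochrome b6f complex, the ATP synthase, the NADH dehydrogenase-like (NDH) complex and Rubisco, as well as ribosomal proteins, an RNA polymerase, ribosomal RNAs and transfer RNAs. In Arabidopsis the plastids of an embryo come from the mother, so the embryos of all 4 groups inherited plastids of a wt diploid plant. Plastid messenger RNAs do not carry a stable poly(A) tail. In plastids, as in bacteria, a short added tail marks an RNA for breakdown. Poly(A) selection therefore favours nuclear messenger RNAs over plastid ones. Pieces of the chloroplast genome have also moved into the nuclear chromosomes, and some lie in annotated nuclear genes and pseudogenes.

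All 133 chloroplast rows were listed at 0 RPKM (reads per kilobase of gene, scaled to library size) in all 12 libraries. No row was above 0 in 2x wt, 2x nrpd1, 3x wt or 3x nrpd1, and the rows therefore had no spread, no order and no fold change between groups. The 146 mitochondrial rows, whose IDs start with ATMG, were likewise at 0 in every library. Of the 33323 nuclear rows, 6990 (21.0%) were at 0 in every library, and within a library 34.1% to 38.1% of nuclear rows were at 0. A 0 in a table without counts states only how a gene is listed.

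Other RNA classes that usually lack a poly(A) tail were not all at 0. Small nucleolar RNAs, which guide the modification of ribosomal RNA, were above 0 in some library for 70 of 71 rows. The small nuclear RNAs of the spliceosome were above 0 for 12 of 13 rows. Of 623 nuclear transfer RNA rows, 135 were above 0 in some library. Within a library, 18.3% to 52.1% of the small nucleolar RNA rows and 15.4% to 46.2% of the small nuclear RNA rows were at 0. Of the transfer RNA rows, 93.6% to 96.6% were. The summed RPKM of these 707 rows was 763 ± 72.9 (SD, n = 3) in 2x wt, 701 ± 72.3 in 2x nrpd1, 703 ± 16.0 in 3x wt and 699 ± 96.8 in 3x nrpd1, close to 0.1% of all RPKM. Whether poly(A) selection, the mapping or the making of the table set the chloroplast rows to 0 was not tested.

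**Figure D1:**
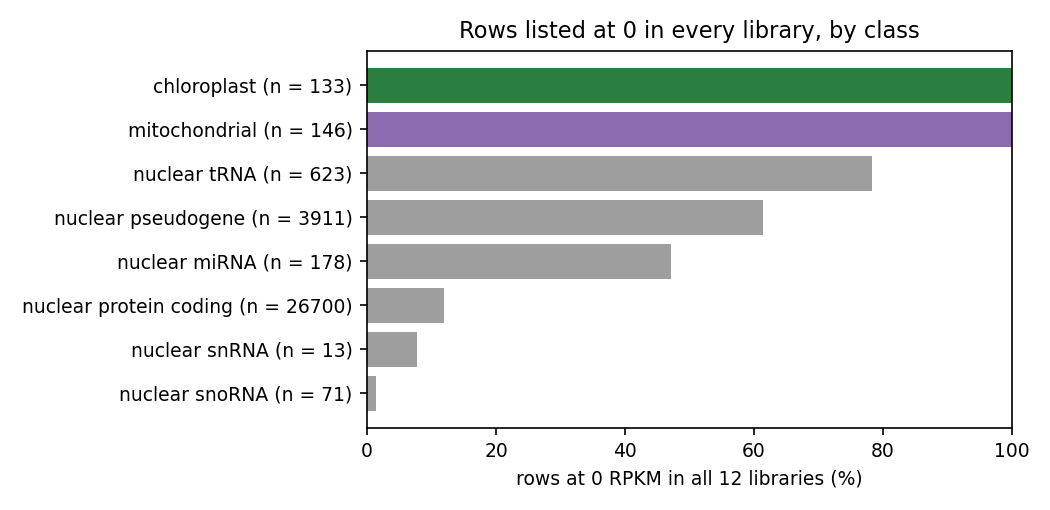
Percentage of rows listed at 0 RPKM in all 12 libraries (x axis) for each class of row (y axis, with the number of rows). The chloroplast and mitochondrial bars reach 100%, the bar of nuclear protein-coding rows 11.9% and that of nuclear small nucleolar RNA rows 1.41%.

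The totals behind the RPKM were recovered from the steps of the low values, since an RPKM multiplied by gene length is a whole multiple of the worth of 1 read. They were 6851605 to 13602764 reads per library, with a median of 9272788. For a gene 1000 bp long, 3 reads correspond to 0.221 to 0.438 RPKM, depending on the library. Reads at nuclear rows with 1 possible length made up 96.4% to 97.2% of the total of their library. With the other nuclear rows added at their shortest and longest possible lengths, the sum was 99.3% to 102% of it. Within these limits the nuclear rows accounted for the total that scaled the RPKM. The study lists a larger number of mapped reads than this total for every library. What the mapped reads outside the total hold was not tested.

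The RefSeq annotation of the chloroplast genome (TAIR10.1, 154478 bp) lists 129 genes. None of its locus tags matched an ATCG ID, so no gene name is given here to a single row. Of the 129 genes, 85 encode proteins, 37 transfer RNAs and 7 ribosomal RNAs, and 15 gene names occur more than once. Some of these names, such as rpl2, recur through the inverted repeat, and others, such as trnS, belong to genes at other places. Photosystem II has 15 genes (among them psbA, its D1 reaction centre protein) and photosystem I has 5 (among them psaA and psaB, its reaction centre proteins). The NDH complex has 12 genes, the cytochrome b6f complex 6 and the ATP synthase 6. The gene rbcL encodes the large subunit of Rubisco, the enzyme that fixes CO2. Expression of the genome itself takes 25 ribosomal protein genes and 4 genes of the plastid-encoded RNA polymerase (rpoA, rpoB, rpoC1 and rpoC2). The 11 other protein genes include accD of fatty acid synthesis, the protease gene clpP and the splicing factor gene matK.

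Little of the chloroplast genome is shared with the other genomes. The chloroplast genome holds 154478 windows of 125 bases, the length of a read, counted around the circle. Of these, 101922 (66.0%) occur there at 1 place and in no other Arabidopsis genome, and 51696 (33.5%) recur only within the chloroplast genome. The remaining 860 (0.557%) are also found in the mitochondrial or a nuclear chromosome, 429 of them in a nuclear one. All 72 protein-coding chloroplast genes that are at least as long as a read hold a window that no other genome has.

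Chloroplast-like sequence did reach the table through nuclear rows. The chloroplast genome gave 134 matches of at least 90% identity on the nuclear chromosomes, and 24 nuclear rows held at least 100 exon bases of such matches. Of these 24 rows, 7 were at 0 in every library, 17 were above 0 in some library and 6 reached 1 RPKM in at least 3 libraries. Only 3 rows, AT2G07739, AT5G31909 and AT2G07080, hold a window of 125 bases identical to the chloroplast genome. A read from such a window fits both genomes equally well. The authors kept 1 alignment per read.

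The sequences of 3 of these rows are shown because their values, seen before they were chosen, differed between groups without overlap of 3x wt, and because they cover the range from an exact copy to a diverged one. All are printed 5′ to 3′ on the nuclear plus strand of TAIR10.1, with the chloroplast sequence in the same orientation, in lower case, and capitals mark the bases that differ within a pair. The first is a stretch of 183 bases of AT5G31909, a transcribed pseudogene at chr5:11765720-11765950, which is identical to bases 19213 to 19395 (minus strand) of the chloroplast genome within rpoC2, the gene of the β″ subunit of the plastid RNA polymerase.
AT5G31909, chr5:11765768-11765950, and chloroplast rpoC2: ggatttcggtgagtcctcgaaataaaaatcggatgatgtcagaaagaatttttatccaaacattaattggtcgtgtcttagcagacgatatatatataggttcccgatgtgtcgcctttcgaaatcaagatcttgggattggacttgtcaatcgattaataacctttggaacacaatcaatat
The second pair is the start of AT3G33002, whose 710 bases match the chloroplast gene rps2, encoding a protein of the small ribosomal subunit, at 96.3% identity. These 120 bases differ at 2 positions.
AT3G33002, chr3:13538067-13538186: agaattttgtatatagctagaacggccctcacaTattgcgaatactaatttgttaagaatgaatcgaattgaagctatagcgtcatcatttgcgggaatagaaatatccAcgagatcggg
Chloroplast rps2, bases 15016 to 15135, plus strand: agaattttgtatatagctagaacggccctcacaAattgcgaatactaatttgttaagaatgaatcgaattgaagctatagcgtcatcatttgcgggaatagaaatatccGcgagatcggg
The third pair comes from AT2G07732, which matches rbcL at 96.9% identity over 573 aligned bases, and differs at 4 of 120 positions.
AT2G07732, chr2:3468169-3468288: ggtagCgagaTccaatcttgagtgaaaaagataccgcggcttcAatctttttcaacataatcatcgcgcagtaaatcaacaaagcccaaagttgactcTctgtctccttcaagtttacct
Chloroplast rbcL, bases 55953 to 56072, minus strand: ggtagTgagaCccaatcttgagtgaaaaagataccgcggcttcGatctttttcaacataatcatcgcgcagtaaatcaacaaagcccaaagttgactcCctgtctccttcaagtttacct

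AT5G31909, the exact rpoC2 fragment, was highest in triploid embryos with wt pollen. Its values were 2.40, 0.665 and 0 RPKM in 2x wt, 5.76, 0.636 and 4.57 in 2x nrpd1, 10.5, 11.9 and 21.5 in 3x wt, against 0.746, 2.34 and 0 in 3x nrpd1. All 3 libraries of 3x wt were above the other 9, which overlapped one another, and the values rest on 0 to 34 reads per library. In such bulk samples, fewer cells of a type and less RNA per cell cannot be told apart. On the log2(RPKM + 0.5) scale, AT5G31909 was higher by 3.70 (SE 0.54) in 3x wt than in 2x wt (limma, adjusted p = 0.00047). Leaving out replicate 1 of 2x wt gave 4.31, leaving out its replicate 3 gave 3.08, and adding 0.1 in place of 0.5 RPKM gave 4.71, past the test each time. Between 3x nrpd1 and 3x wt the difference was -3.62 on this scale (SE 0.57, limma adjusted p = 0.0060), a call lost with no filter on low values (adjusted p = 0.077). Of the row's 107 windows of read length, 59 are identical in the chloroplast genome and 0 in the mitochondrial genome.

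AT3G33002, the rps2 copy, followed the same order of groups. It stood at 0.335, 0.216 and 0.447 RPKM in 2x wt, 2.88, 0.311 and 1.16 in 2x nrpd1, 5.39, 8.98 and 6.78 in 3x wt, against 0.364, 1.14 and 0 in 3x nrpd1. The 3x wt libraries again lay above all others, and replicate 2 was the lowest of the 2x nrpd1 libraries for both rows. The log2 fold change was 3.27 (SE 0.25, limma adjusted p = 1.3e-05) in 3x wt against 2x wt. The row passed the filter of 1 RPKM in 3 libraries through 3x wt alone, so it could be tested here only because 3x wt was high, and it was not tested without any 1 of the 3x wt libraries. For 3x nrpd1 against 3x wt it was -3.09 (SE 0.43, limma adjusted p = 0.0037), a call lost with no filter (adjusted p = 0.052). No window of AT3G33002 is identical in the chloroplast genome, but 142 of 586 differ from it at no more than 2 bases. This row belongs to a series of chloroplast-like rows on chromosome 3 in the order of the chloroplast genome, AT3G32990 (atpH), AT3G33000 (atpI), AT3G33002 (rps2) and AT3G33004 (rpoC2), where the first 2 genes encode subunits of the ATP synthase. Its neighbours were low: AT3G32990 was at 0 in every library, AT3G33000 at 0 to 0.188 RPKM and AT3G33004 at 0 to 0.130 RPKM.

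AT2G07732, the rbcL copy, lies in a part of chromosome 2 that also matches the mitochondrial genome, which itself carries pieces of chloroplast DNA. Its values were 2.48, 1.90 and 0.523 RPKM in 2x wt, 2.05, 2.66 and 1.74 in 2x nrpd1, 4.20, 6.15 and 7.69 in 3x wt, against 1.14, 1.78 and 1.60 in 3x nrpd1. The 3x wt libraries did not overlap with the other 9. The row was higher by 1.84 on the log2 scale (SE 0.39, limma adjusted p = 0.0038) in 3x wt than in 2x wt, a call lost with no filter (adjusted p = 0.070). The difference of 3x nrpd1 from 3x wt was -1.66 on the same scale (SE 0.30, limma adjusted p = 0.011), a call lost without 3x wt replicate 2 (-1.62, adjusted p = 0.077) or replicate 3 (-1.47, adjusted p = 0.075). Of 616 windows, 438 are identical in the mitochondrial genome and 0 in the chloroplast genome.

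AT2G07739 at chr2:3495511-3496398 holds 821 exon bases that match chloroplast bases 109126 to 109937, only in part within the gene ycf1, at 97.1% identity. All 764 of its windows are identical in the mitochondrial genome and 77 also in the chloroplast genome. Its values were 12.1, 11.5 and 3.88 RPKM in 2x wt, 22.0, 6.62 and 23.0 in 2x nrpd1, 31.3, 29.3 and 29.2 in 3x wt, against 2.87, 27.0 and 0.696 in 3x nrpd1. The 3x wt libraries agreed closely, while 3x nrpd1 replicate 2 stood far above the other two 3x nrpd1 libraries. As in the rpoC2 and rps2 rows, replicate 2 was the lowest library of 2x nrpd1 and the highest of 3x nrpd1. AT2G07739 was higher by 1.96 on the log2 scale (SE 0.35, limma adjusted p = 0.0016) in 3x wt than in 2x wt, a call lost with no filter (adjusted p = 0.052) or with all 12 libraries in 1 fit (adjusted p = 0.090). The change of -2.67 (SE 0.90) on the log2 scale in 3x nrpd1 against 3x wt did not pass the test (limma adjusted p = 0.084), but did without 3x nrpd1 replicate 2 (-3.87, adjusted p = 0.00086) and with all 12 libraries in 1 fit (-2.70, adjusted p = 0.031).

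**Figure D2:**
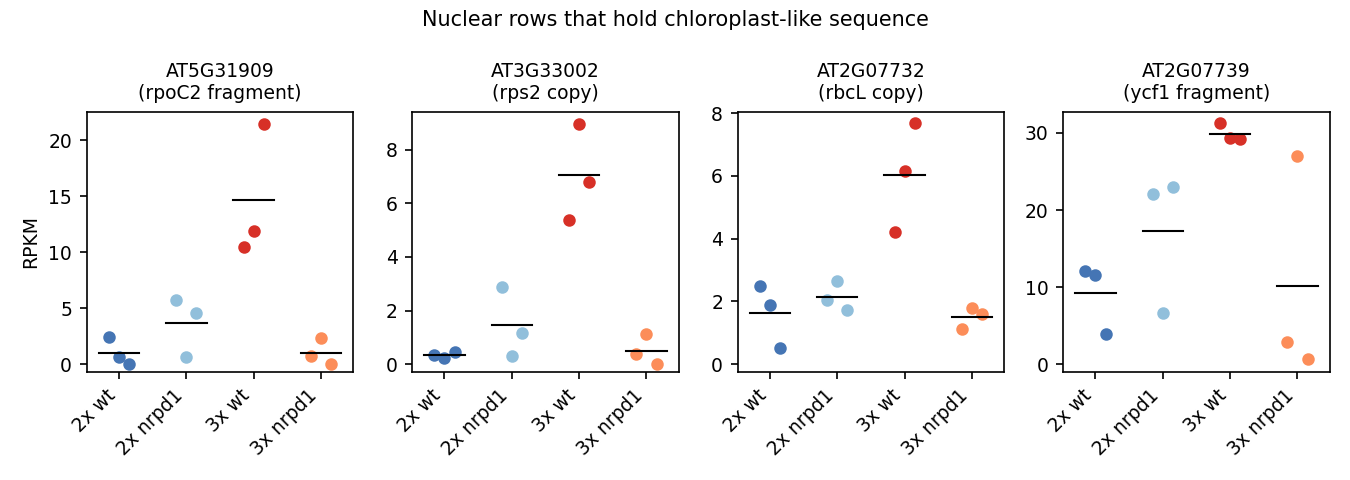
RPKM (y axis, linear, one scale per panel) of 4 nuclear rows that hold chloroplast-like sequence, in the 4 groups (x axis). Each point is 1 library and each line the mean of 3. The 3x wt points lie above every other point in all 4 panels, least clearly for AT2G07739, where 3x nrpd1 replicate 2 reached 27.0 RPKM.

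The remaining rows were low or ordered otherwise. AT2G07080, a pseudogene with 7 windows identical in the chloroplast genome, was at 0.591, 0.339 and 0.620 RPKM in 3x wt and at 0 to 0.181 RPKM in the other 9 libraries. AT1G13400 (NUB), a protein-coding gene with 109 exon bases identical to ycf2, ranged from 0.422 to 3.00 RPKM, and its difference of -0.65 (log2 scale, SE 0.33) in 3x wt against 2x wt did not pass the test (limma adjusted p = 0.13). AT2G07688, with a psbA-like stretch, ranged from 0 to 1.60 RPKM, and was tested only where 3x wt was compared with 3x nrpd1 (log2 fold change -0.47, SE 0.47, limma adjusted p = 0.52) and in the interaction.

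Counted over all 24 rows, with no filter and no test, 8 had all 3 libraries of 3x wt above all 3 of 2x wt and 0 had them below, where 14.8% and 22.9% of all 33602 rows did so. Among the 8, AT2G05935 and AT2G12020 rest on at most 2 reads in any library and AT1G21945 on at most 6. Of 3x nrpd1 against 3x wt, 7 of 24 lay wholly below and 0 wholly above, where 12.5% and 11.6% of all rows did so. In 3x nrpd1 against 2x nrpd1, 1 of 24 lay wholly below and 0 above (8.55% and 5.5% of all rows), and in 2x nrpd1 against 2x wt 1 lay wholly above and 0 below (2.84% and 4.19%). The summed RPKM of the 24 rows was 21.1, 17.7 and 7.75 in 2x wt, 36.7, 13.3 and 34.2 in 2x nrpd1, 54.6, 60.0 and 68.8 in 3x wt, against 6.86, 35.7 and 4.56 in 3x nrpd1. The difference between the ploidy effect with wt pollen and that with nrpd1 pollen was tested in 6 rows and was called in 3, all more positive with wt pollen, where 5.32% of all genes tested were called in that direction: AT5G31909 (5.11, SE 1.07, limma adjusted p = 0.0097), AT3G33002 (4.13, SE 0.69, adjusted p = 0.0027) and AT2G07732 (2.13, SE 0.53, adjusted p = 0.022). AT2G07739 was called only without 3x nrpd1 replicate 2 (4.77, adjusted p = 0.0028). The call of AT5G31909 was lost with no filter (adjusted p = 0.055). That of AT2G07732 was lost with no filter (0.079), without 2x nrpd1 replicate 2 (0.055), 3x wt replicate 2 (0.065) or 3x wt replicate 3 (0.073).

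The same count was made for nuclear rows with mitochondrial sequence. Besides the 4 rows already counted, 98 nuclear rows, nearly all on chromosome 2, where a large insertion of mitochondrial DNA is known, hold at least 100 windows identical in the mitochondrial genome. All 3 libraries of 3x wt lay above those of 2x wt in 72 of the 98 rows and below in 0, beside 14.8% and 22.9% of all rows. Against 3x wt, 73 of the 98 rows of 3x nrpd1 lay wholly below and 0 above, beside 12.5% and 11.6% of all rows. Their summed RPKM was 104, 94.0 and 42.6 in 2x wt, 111, 161 and 123 in 2x nrpd1, 290, 369 and 281 in 3x wt, against 99.7, 82.9 and 70.5 in 3x nrpd1. The sums of 3x wt did not overlap with those of any other group. The study lists a lower mapping efficiency for each 3x wt library than for any library of the other groups. Its part in these sums was not tested. Neighbouring rows of one insertion share sequence and are not independent. A read from a window that a row shares with the chloroplast or the mitochondrial genome cannot be told apart from a read of that genome, and the chloroplast and mitochondrial rows themselves stayed at 0.

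**Figure D3:**
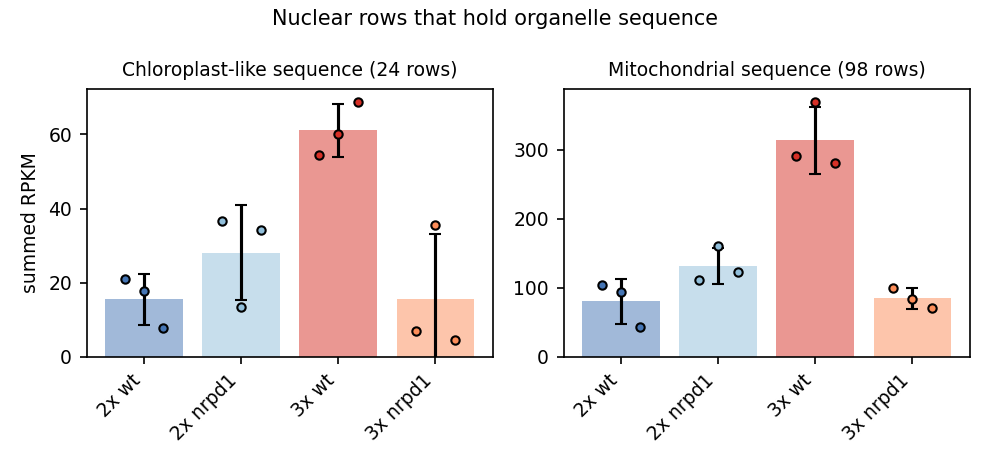
Summed RPKM (y axis, linear from 0) of the 24 nuclear rows with chloroplast-like exon sequence (left) and of the other 98 nuclear rows with mitochondrial sequence (right), by group (x axis). Bars are means, error bars SD and points the 3 libraries. The error bar of the left 3x nrpd1 bar is clipped at 0, and the 3x wt bars are the tallest in both panels.

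Markers of other seed tissues also varied between the groups. The study washed the dissected embryos to remove endosperm. From a tissue enrichment test of the 12 transcriptomes, it reported mostly embryo RNA and a negligible part from endosperm. The summed RPKM of 10 seed coat genes was 161 to 175 in 2x wt, 176 to 197 in 2x nrpd1, 276 to 339 in 3x wt and 116 to 191 in 3x nrpd1, while TT2 and TT16 were at 0 in all libraries of 2x wt. SBT1.7, a seed coat mucilage protease, made up most of this sum, with a mean of 141 RPKM in 2x wt against 280 for 3x wt. BAN and TT10 were also higher on average in 3x wt (4.70 and 6.02 RPKM) than in 2x wt (0.428 and 0.416), while TTG2 went from 8.24 to 5.52 and TT12 from 1.96 to 0.693. The sum of 10 endosperm genes was 57.1 to 68.4, 56.7 to 66.8, 85.8 to 94.0 and 23.3 to 78.7 in the same order, of which AGL36 was at 0 throughout and PHE1 in the diploid groups. SUC5, a sucrose carrier, held most of it, with means of 57.1 RPKM for 2x wt against 86.6 for 3x wt, while ZOU went from 1.07 to 0.279 and ALE1 from 2.35 to 0.397. The sum of 14 embryo genes was 522 to 620 in 2x wt, 552 to 727 in 2x nrpd1, 788 to 863 in 3x wt and 699 to 840 in 3x nrpd1, with none at 0 in a whole group. L1L held most of the 3x wt sum, with means of 152 RPKM for 2x wt against 488 for 3x wt. FUS3 went from 45.5 to 69.8, while LEC1 went from 182 to 81.6 and LEC2 from 17.2 to 7.74. The part of seed coat RNA in the higher values of the chloroplast-like rows in 3x wt was not tested. In 3x nrpd1, replicate 3 stood apart, with a summed RPKM over all rows of 866778 against a median of 732496 over the 12 libraries.

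The machinery that reads the chloroplast genome is encoded largely in the nucleus, and its messages carry poly(A) tails. A list of 20 nuclear factors of plastid transcription held sigma factors, which give the plastid-encoded RNA polymerase its promoters, proteins associated with this polymerase and needed for its activity, and phage-type polymerases. In 3x wt against 2x wt, 0 of the 19 tested genes were called higher and 7 lower, where 11.1% and 4.85% of all genes tested were. At an unadjusted limma p under 0.05, 1 was higher and 16 were lower, beside 29.7% and 27.8% of all genes. The genes called lower were SIG2, PTAC3, PTAC6, PTAC10, PTAC12, PTAC14 and FLN1. The count of 7 was 13 with RPKM as deposited, a scaling that moved the median of all genes to -0.16. The share of all genes called lower with that scaling was not counted. With the main scaling, the median log2 fold change of the list was -0.92 against -0.01 over all genes. PTAC3 (AT3G04260), one of the polymerase-associated proteins, had the lowest log2 fold change. Its values were 48.6, 50.5 and 55.7 RPKM in 2x wt, 40.2, 42.3 and 46.2 in 2x nrpd1, 18.8, 12.9 and 13.9 in 3x wt, against 31.4, 31.8 and 13.4 in 3x nrpd1. The 3x wt libraries were below both diploid groups, and 3x nrpd1 replicate 3 lay among them. The log2 fold change of PTAC3 in 3x wt against 2x wt was -1.59 (SE 0.12, limma adjusted p = 1.4e-05). SIG2, chosen after its values were seen, is a sigma factor needed for the transcription of plastid transfer RNA genes. It was at 39.0, 41.3 and 44.3 RPKM in 2x wt and at 13.9, 12.1 and 11.6 in 3x wt, without overlap, a change of -1.53 (SE 0.09, limma adjusted p = 4.0e-06). SIG5 (SIGE in RefSeq), a stress-responsive sigma factor, had the highest log2 fold change of the list, 0.59 (SE 0.23), and did not pass the test (limma adjusted p = 0.057).

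For 3x nrpd1 against 3x wt, 1 of the 19 factors of plastid transcription was called higher and 0 lower. Of all genes tested, 3.18% and 6.5% were, and the median of the list was 0.65 on the log2 scale. The factor called was SIG2, at 35.9, 33.2 and 20.4 RPKM in 3x nrpd1 (2.29-fold higher after adding 0.5 RPKM, limma adjusted p = 0.0040), and 2 were called without 3x nrpd1 replicate 2 or without 3x wt replicate 1. In 3x nrpd1 against 2x nrpd1, 0 of 19 were called in either direction, where 0.904% of genes tested were called higher and 0.0171% lower, and 3 of the 19 were lower and 0 higher at an unadjusted limma p under 0.05, as were 3.08% and 7.78% of all genes. In 2x nrpd1 against 2x wt 0 of 19 were called, as were 0% of all genes tested, with 5 lower and 0 higher at an unadjusted limma p under 0.05, beside 2.43% and 3.21% of all genes. The interaction was called lower in 3 of 19, where 2.77% of all genes tested were.

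Of 6 nuclear factors of plastid RNA turnover, 2 were called lower and 0 higher in 3x wt against 2x wt, beside 4.85% and 11.1% of all genes. The list median was -0.60. Besides PNP, described next, AT5G63420 (emb2746 in RefSeq) was called lower, at -1.04 (SE 0.10, limma adjusted p = 3.8e-05). Without 2x wt replicate 3, 1 gene of the list was called lower. PNP (AT3G03710, RIF10 in RefSeq), the plastid polynucleotide phosphorylase, which adds and removes RNA tails, had the lowest log2 fold change. It was at 29.1, 29.7 and 30.8 RPKM in 2x wt, 26.0, 24.7 and 24.7 in 2x nrpd1, 12.3, 11.3 and 11.2 in 3x wt, against 20.7, 20.8 and 9.15 in 3x nrpd1. All diploid libraries were above all 3x wt libraries, and 3x wt differed from 2x wt by -1.16 (SE 0.09, limma adjusted p = 1.3e-05). CSP41B (AT1G09340, CRB in RefSeq), a plastid RNA-binding protein, had the highest value of the list, -0.10 (SE 0.10, limma adjusted p = 0.42). For 3x nrpd1 against 3x wt, 1 of 6 was called higher, CSP41A (AT3G63140, 1.02, SE 0.19, limma adjusted p = 0.011), and 0 lower, beside 3.18% and 6.5% of all genes. No gene of the list was called higher without 3x nrpd1 replicate 1, 3x wt replicate 2 or 3x wt replicate 3.

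The nuclear-encoded partners of the chloroplast-encoded subunits stayed within the fold required in 3x wt against 2x wt. Of 26 nuclear subunits of photosystems, cytochrome b6f complex, ATP synthase and Rubisco, 0 were called higher and 0 lower in 3x wt against 2x wt where 11.1% and 4.85% of all genes were (list median 0.26). At an unadjusted limma p under 0.05, 13 of 26 were higher and 2 lower, beside 29.7% and 27.8% of all genes. PSBR (AT1G79040), a photosystem II subunit, had the highest log2 fold change, 0.84 (SE 0.09, limma adjusted p = 0.00011), under the 1 required. It was at 520, 534 and 480 RPKM in 2x wt, 531, 600 and 481 in 2x nrpd1, 849, 807 and 801 in 3x wt, against 767, 613 and 917 in 3x nrpd1. The triploid libraries lay above all diploid ones. RBCS2B (AT5G38420), a small subunit of Rubisco whose near-identical neighbours can share its reads, had the lowest, -0.58 (SE 0.30, limma adjusted p = 0.14). For 3x nrpd1 against 3x wt, 1 of 26 was called higher, RBCS3B (AT5G38410, 1.07, SE 0.29, limma adjusted p = 0.044), and 0 lower, beside 3.18% and 6.5% of all genes. Without 3x nrpd1 replicate 2 the count was 3, and it was 0 without any other of the 6 libraries. In 3x nrpd1 against 2x nrpd1, 0 of 26 were called in either direction, where 0.904% of genes tested were called higher and 0.0171% lower. All 26 log2 fold changes were positive, with a list median of 0.57. At an unadjusted limma p under 0.05, 11 were higher and 0 lower, beside 7.78% and 3.08% of all genes. The summed RPKM of the 26 rows was 12497 ± 826 (SD, n = 3) in 2x wt, 12726 ± 907 in 2x nrpd1, 14547 ± 990 in 3x wt and 17472 ± 2949 in 3x nrpd1. The chloroplast rows, none of which was matched to a complex, were all listed at 0.

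**Figure D4:**
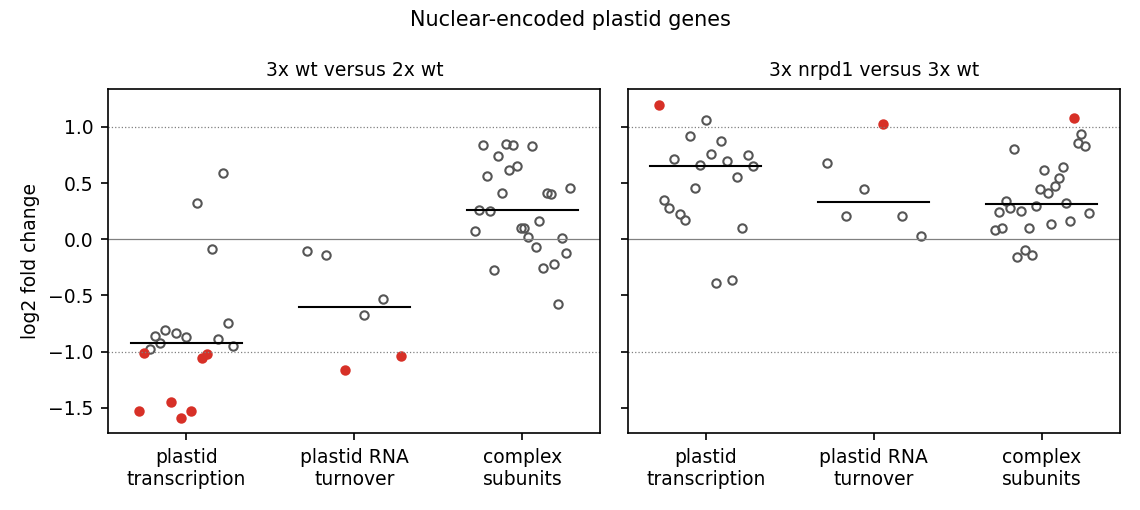
Log2 fold change on the log2(RPKM + 0.5) scale (y axis) of the genes of 3 lists of nuclear-encoded plastid genes (x axis), in 3x wt against 2x wt (left) and 3x nrpd1 against 3x wt (right). Filled points passed the test, open points did not, and lines are medians, which for plastid transcription are -0.92 on the left and 0.65 on the right.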

How the data were processed

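The authors selected poly(A) RNA, sequenced 125-base read pairs, trimmed them with Trimmomatic and mapped them with TopHat2 to TAIR10 masked for rRNA genes, with 1 alignment per read. The deposited values are RPKM per gene and library, and the authors' counts per gene were not used here. The sources used here do not say how the organelle genomes entered the mapping. Positions and sequences are from RefSeq (TAIR10.1).

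The chloroplast rows and all lists were chosen with earlier results of these data known. Nuclear copies were found with BLASTN and by comparing windows of 125 bases. Log2(RPKM + 0.5) was tested with limma 3.58.1 in R 4.3.3 (variance trend, two-sided, Benjamini-Hochberg adjustment over all genes tested), after median-ratio scaling of the 6 libraries compared, or of all 12 for the interaction. Genes with at least 1 RPKM in 3 libraries were tested, and called beyond a log2 fold change of 1 at an adjusted p under 0.05. No chloroplast row passed this filter. The recovery of totals and the limma fit were tested on simulated data. Of each nuclear list, the genes with the largest and smallest change in 3x wt against 2x wt were named. For the chloroplast rows the rule would have named 8 core genes, the 2 most abundant of each role and the 5 most changed in each direction, and gave none, since no row was above 0. Of 52 listed nuclear genes, 48 names matched RefSeq. Tables were read in Python 3.11.15 with pandas 2.3.3. Replicates came from separate plants. Same-numbered libraries of the groups compared correlated at -0.14 to 0.26 in their deviations from group means and were not treated as pairs.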

Additional observations from a re-analysis of the deposited data

Results flagged for a closer look

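Groups of 3 libraries were not searched for single outlying values. For 6 of the rows and listed genes tested one by one, the change from diploid to triploid with wt pollen differed from that with nrpd1 pollen in a test of the difference itself, the interaction in limma over all 12 libraries. Called were 3 of 6 rows with chloroplast-like sequence and 3 of 19 factors of plastid transcription. Of the turnover factors 0 of 6 were called, and of the complex subunits 0 of 26. Over all genes tested, 5.32% were called higher and 2.77% lower. In 3 rows with chloroplast-like sequence the difference was positive on the log2 scale, 5.11 for AT5G31909, 4.13 for AT3G33002 and 2.13 for AT2G07732; the first and last of these calls were lost with no filter on low values (adjusted p = 0.055 and 0.079). Of the 98 other rows with mitochondrial sequence, only 24 passed the filter in each comparison without 3x wt. High 3x wt values thus let further rows into the interaction, so the filter in part set their count. There 52 were tested and 31 were also called with a positive difference, beside 5.32% of all genes. In 3 factors of plastid transcription it was negative, -1.34 for SIG2 (AT1G08540, SE 0.18, limma adjusted p = 0.00071), -1.14 for PTAC12 (AT2G34640, SE 0.21, limma adjusted p = 0.0045) and -1.06 for PTAC10 (AT3G48500, SE 0.21, limma adjusted p = 0.0073). PTAC10 was no longer called without 2x nrpd1 replicate 1 (-0.99), 3x nrpd1 replicate 1 (-0.96), 3x wt replicate 2 (-0.98) or 3x wt replicate 3 (-0.99), or when scaled to the nuclear total (adjusted p = 0.065).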

How the results depend on the processing

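Since all 133 chloroplast rows were 0 in every library, no alternative could give a call among them, and their counts of 0 say nothing about stability. Their median log2 fold change has no value, since none passed the filter. With the replicate block, 7 factors of plastid transcription were called lower in 3x wt against 2x wt, as without it; the block moved no count of calls by over 1.5 times and changed no call named in the text. Scalings moved the median of all genes in 3x wt against 2x wt from -0.01 to -0.16 (RPKM as deposited), -0.11 (quantile) and -0.20 (nuclear total).

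The alternatives for nuclear rows and lists were chosen after seeing the data. In 3x wt against 2x wt, factors of plastid transcription called lower numbered 13 with RPKM as deposited and 15 with the nuclear total. Both scalings moved the median of all genes, to -0.16 and -0.20. The share of all genes called lower with them was not counted. With a mean of at least 5 RPKM, fewer rows were tested, and 2 chloroplast-like rows and 7 mitochondrial-like rows were called higher, against 4 of 5 and 45 of 50 tested (11.1% of all genes). Of these, 1 of the 5 and 23 of the 50 passed the filter through 3x wt alone, so these counts were set in part by the filter. Without 1 library the mitochondrial-like rows called ranged from 21 of 27 tested (without 3x wt replicate 3) to 47 of 50, and turnover factors called lower from 1 (without 2x wt replicate 3) to 2. Without a filter, adjusted p rose to 0.070 for AT2G07732 and 0.052 for AT2G07739.

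In 3x nrpd1 against 3x wt, chloroplast-like rows called lower numbered 3, but 0 without a filter and 1 with a mean of at least 5 RPKM, where mitochondrial-like rows numbered 5 against 32 of 52 tested (6.5% of all genes). Of the 52, 23 passed the filter through 3x wt alone. Without 1 library the mitochondrial-like rows called ranged from 7 (without 3x wt replicate 2) to 38. Factors of plastid transcription called higher numbered 2 with RPKM as deposited or all 12 libraries in 1 fit, and 1 to 2 without 1 library. Turnover factors called higher numbered 0 with a pseudocount of 1 or the nuclear total, and 0 to 1 without 1 library. Subunits called higher numbered 0 without a filter or with a mean of at least 5 RPKM, and 0 to 3 without 1 library. SIG5 changed sign without 3x wt replicate 1 (-0.017), with 0.25 as the highest value without 1 library, and PSBR (-0.10) without 3x nrpd1 replicate 2 (0.12), with -0.37 as the lowest value without 1 library. The cause of these changes was not tested where none is given. Low read numbers and 3 libraries per group limit precision, and intervals for a row listed at 0 cannot be given.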
